A study of Mus musculus with 6 samples.

Results

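Interferon-stimulated genes are the antiviral effectors, sensors and GTPases that a cell makes in response to interferon. A set of 35 such genes was examined, chosen by gene symbol, and all 35 were among the 29872 rows of the deposited table. The 6 libraries were bulk RNA sequencing of C57BL/6 mouse bone marrow, with 3 libraries under the label CML, for chronic myeloid leukaemia, and 3 under WT, for wild type. Both groups were untreated and expanded ex vivo, and the gate for stem cells was Lin- Sca1+ cKit+ CD150+. The labels name no allele or promoter for the CML cells, nor do they tell if a group's 3 libraries were 3 animals or 3 cultures. The p-values therefore set the difference between the groups against the spread of libraries within a group, and that spread may be technical. In bulk RNA, fewer cells of a type and less RNA per cell cannot be told apart.

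Type I interferons bind the receptor IFNAR1/IFNAR2, which signals through the kinases JAK1 and TYK2 to a complex that includes STAT2 and IRF9. That complex binds the interferon-stimulated response element (ISRE) in the promoters of its target genes. Interferon gamma uses IFNGR1/IFNGR2, JAK1 and JAK2, and its target promoters carry the gamma-activated sequence (GAS). In blood stem cells interferon can drive dormant cells into division, and interferon alpha has long been used to treat CML.

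The promoters of 26 of the 35 members were found by symbol in RefSeq sequences on GRCm38.p6, each covering 250 bases before and 50 bases after an annotated start. The core of the ISRE was searched on both strands as a pair of GAAA words with any 2 bases between them, and at least 1 match was found in 20 of the 26 members (76.9%). The same search found a match in 3.99% of the 27025 genes with such a window. The GAS pattern TTCNNNGAA, which reads the same on both strands, was found in 7 of the 26 members (26.9%) and in 9.55% of all genes. Some matches of the 2 patterns overlapped. The members were chosen as known interferon targets, so these shares describe the list and say nothing of binding in these cells. The windows of the member with the lowest adjusted p (Rsad2), of an IFIT gene and of Gbp2, the called guanylate-binding protein gene, are shown, because members called in opposite directions both held an ISRE core. Capitals mark the ISRE core.

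Rsad2, chr12:26456403-26456702, minus strand: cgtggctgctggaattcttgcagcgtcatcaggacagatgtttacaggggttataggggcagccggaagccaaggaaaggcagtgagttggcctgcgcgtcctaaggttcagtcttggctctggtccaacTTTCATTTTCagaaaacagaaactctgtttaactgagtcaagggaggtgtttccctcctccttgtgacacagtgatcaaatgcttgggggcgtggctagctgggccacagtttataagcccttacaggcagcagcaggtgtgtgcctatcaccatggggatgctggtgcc
Ifit1, chr19:34640639-34640938, plus strand: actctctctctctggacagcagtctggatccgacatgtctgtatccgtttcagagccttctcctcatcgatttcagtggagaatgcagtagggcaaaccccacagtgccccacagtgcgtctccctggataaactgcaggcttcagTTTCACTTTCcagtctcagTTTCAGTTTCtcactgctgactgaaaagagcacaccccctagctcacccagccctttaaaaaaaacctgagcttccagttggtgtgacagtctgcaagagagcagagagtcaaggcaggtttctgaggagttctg
Gbp2, chr3:142620413-142620712, plus strand: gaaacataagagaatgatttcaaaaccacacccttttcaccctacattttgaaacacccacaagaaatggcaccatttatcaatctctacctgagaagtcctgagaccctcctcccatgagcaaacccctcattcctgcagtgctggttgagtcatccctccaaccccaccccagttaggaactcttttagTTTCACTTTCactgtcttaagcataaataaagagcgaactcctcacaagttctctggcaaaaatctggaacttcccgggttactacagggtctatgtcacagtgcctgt

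The core began 120 bases before the start of Rsad2 and 59 bases before the start of Gbp2, and in Ifit1 at 104 and 85 bases before the start. All of these lay on the opposite strand to the gene, so that the printed strand reads TTTC at both ends of the core. Among the members with a promoter window, the core was found in 5 of the 8 that were lower in CML, in both that were higher, and in 13 of the 16 that did not pass the test. The GAS pattern was found in 7 of those 16 and was not seen in the windows of the other members.

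**Figure D1:**
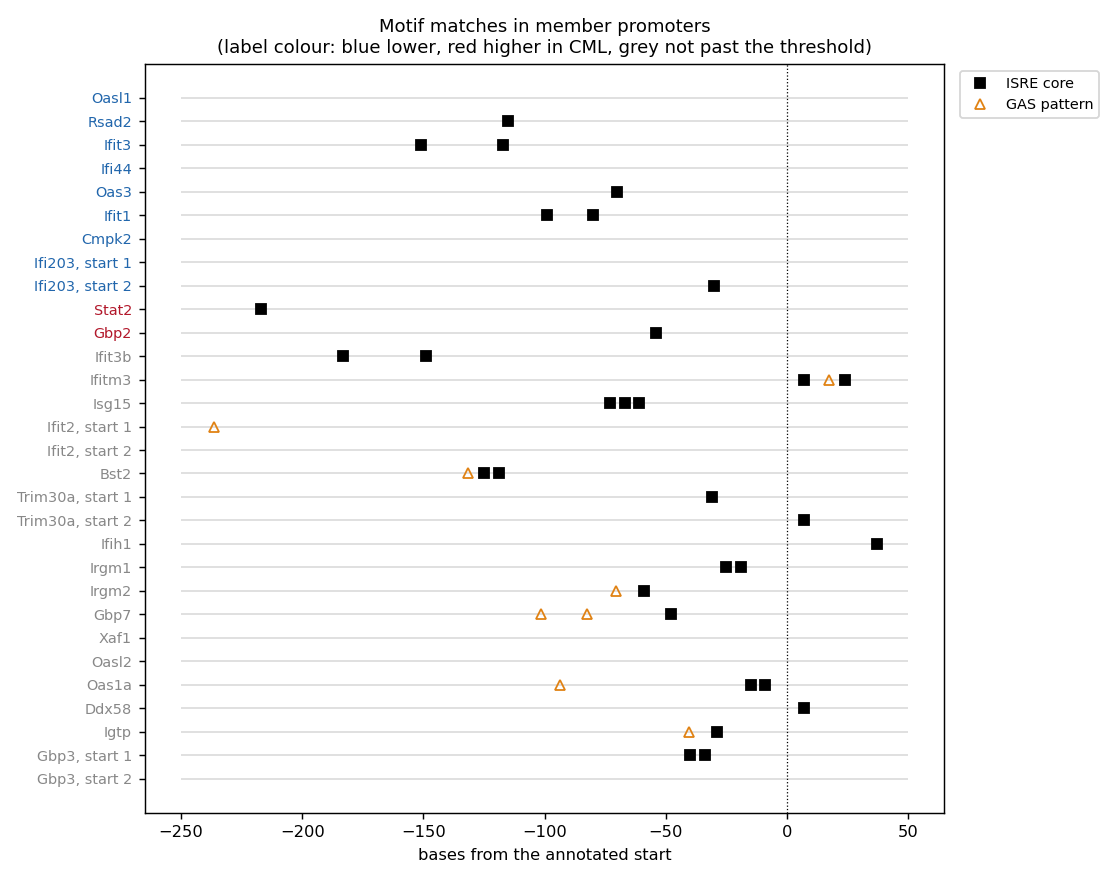
Positions of ISRE cores (squares) and GAS patterns (triangles) in the promoter windows of 26 members, in bases from the annotated start; members with 2 annotated starts have 2 lines. ISRE cores occur in 20 of the 26 members, among genes lower in CML, higher in CML and not past the threshold alike.

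Of the 35 members, 11 were lower in CML than in WT, 2 were higher and 22 did not pass the test (edgeR quasi-likelihood test, Benjamini-Hochberg adjusted p under 0.05 over 16221 genes). All 35 had enough counts to be tested. Across all tested genes 7.20% were called lower and 10.2% higher, against 31.4% and 5.71% of the members. The members were chosen with earlier results of these data known, so these shares only describe the list. The members' median log2 ratio (the log2 fold change, CML over WT) was -0.07, beside -0.0043 for all tested genes; 20 members had a value below 0 and 15 a value above 0. The values of CML and WT libraries did not overlap for 20 members, 14 lying lower in CML (40.0%, against 16.5% of all tested genes) and 6 higher (17.1%, against 18.5%). The sum of the 35 members was 1786, 1962 and 1672 CPM (counts scaled to a common library size) in CML replicates 1, 2 and 3, and 1958, 2412 and 2066 CPM in the WT replicates, so the sums overlapped at 1962 and 1958 CPM.

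**Figure D2:**
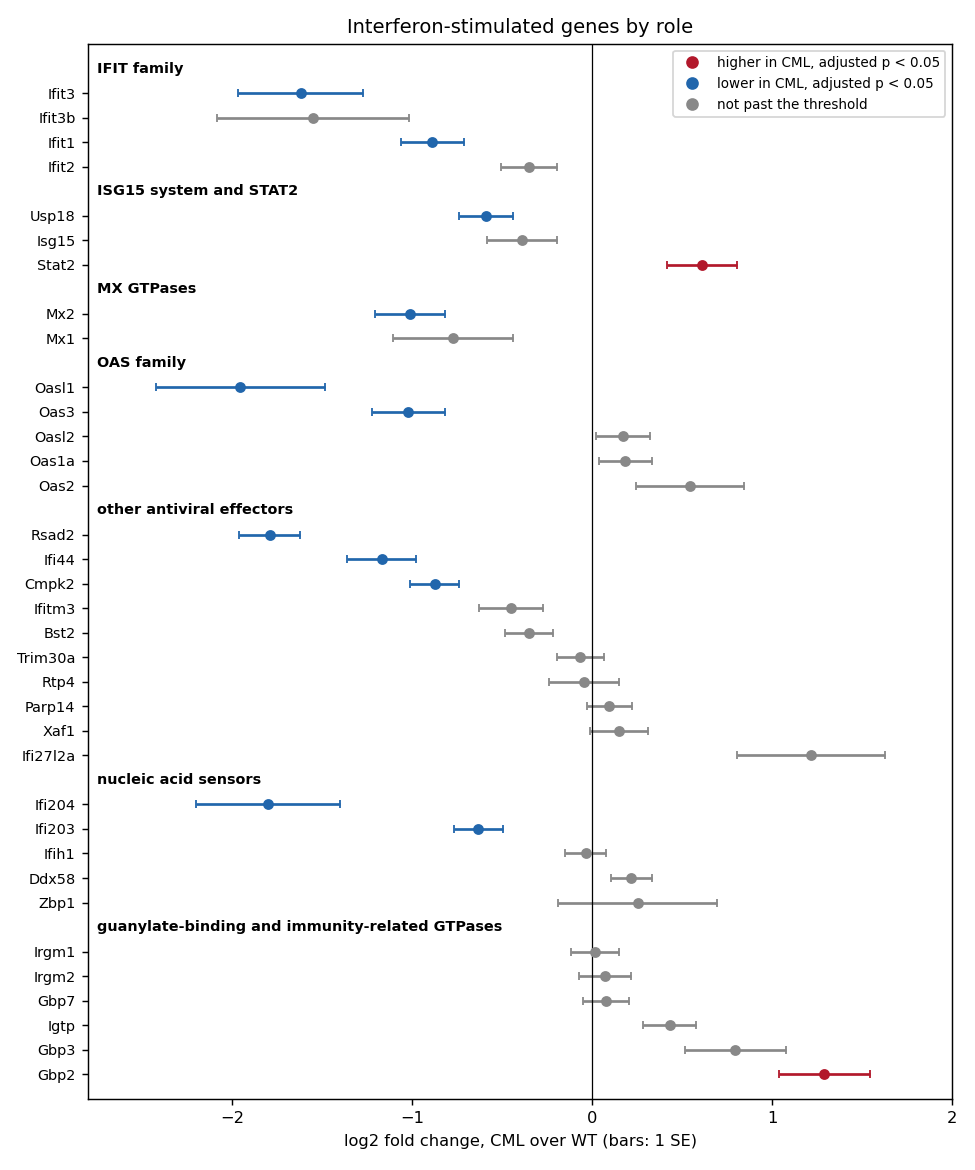
Log2 fold change (CML over WT) of the 35 members by role. Bars are 1 SE, derived from the fold change and F statistic (edgeR, 3 libraries per group). The 11 members in blue lie below 0, from -1.95 for Oasl1 to -0.59 for Usp18, and the 2 in red, Stat2 and Gbp2, lie above 0.

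Rsad2 and its neighbour Cmpk2 had the lowest adjusted p-values. Rsad2 encodes viperin, an enzyme that makes a chain-terminating nucleotide against viral RNA synthesis, and lies at chromosome 12, 26442746 to 26456452 (GRCm38). Its level was 13.9, 13.2 and 13.7 CPM in the CML libraries and 39.7, 60.7 and 40.9 CPM in the WT libraries. The CML values lay within 1 CPM of each other and all stood far below the lowest WT value. The log2 ratio was -1.79 (SE 0.17, adjusted p = 1.62e-05, edgeR), so that WT had 3.46 times the level of CML. Cmpk2, a mitochondrial nucleotide kinase (chromosome 12, 26469204 to 26479837), was at 21.5, 21.2 and 22.2 CPM in CML and at 32.9, 44.8 and 41.5 CPM in WT. The groups did not overlap, and the log2 ratio was -0.88 (SE 0.14, adjusted p = 8.9e-04, edgeR). The ISRE core was found in the promoter window of Rsad2 and not in that of Cmpk2.

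The IFIT genes encode proteins that bind viral RNA lacking the cap marks of the host. They lie in 1 cluster on chromosome 19 (34550694 to 34650009), and 2 of the 4 fell (50%, against 7.20% of all tested genes). Ifit1 was at 11.2, 17.2 and 12.5 CPM in CML and 24.5, 28.4 and 22.8 CPM in WT, and each CML library lay below each WT library. Its log2 ratio was -0.89 (SE 0.17, adjusted p = 0.0038, edgeR). Ifit3 was scarcer, at 1.13, 1.24 and 2.32 CPM in CML and 3.05, 5.62 and 5.85 CPM in WT, again without overlap (log2 ratio -1.62, SE 0.35, adjusted p = 0.00645, edgeR). Ifit3b, its close copy, had 0.063, 0.657 and 0.751 CPM in CML and 1.61, 1.20 and 1.49 CPM in WT, with a log2 ratio of -1.55 that missed the threshold (SE 0.53, adjusted p = 0.063, edgeR) and passed with no low-count filter (adjusted p = 0.031). How reads shared by Ifit3 and Ifit3b were divided is not given, and both had values that were not whole numbers in all 6 libraries. Ifit2, the IFIT member with the highest mean level in CPM, was at 25.6, 21.5 and 24.7 CPM in CML and 31.1, 36.2 and 24.5 CPM in WT. Here CML replicates 1 and 3 overlapped WT replicate 3, and the log2 ratio of -0.35 did not pass (SE 0.15, adjusted p = 0.136, edgeR); without WT replicate 3 it did (-0.49, adjusted p = 0.0226).

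In the OAS family, some members make the oligoadenylate that switches on the nuclease RNase L. Of the 5 examined, 2 fell (40%, against 7.20% of all tested genes) and 3 did not pass. Oas3 (chromosome 5, 120753098 to 120777661) was at 39.0, 46.6 and 38.6 CPM in CML and 65.3, 114 and 72.4 CPM in WT. Its WT libraries were uneven, with replicate 2 the highest, but none reached down to the CML range (log2 ratio -1.02, SE 0.20, adjusted p = 0.00694, edgeR). Oasl1, which in mice restrains translation of Irf7 mRNA, was at 3.14, 0.875 and 2.88 CPM in CML and 4.90, 10.3 and 11.96 CPM in WT. It had the lowest log2 ratio of the members, -1.95 (SE 0.47, adjusted p = 0.025, edgeR). Leaving out CML replicate 3 (adjusted p = 0.0709), WT replicate 2 (0.0948) or WT replicate 3 (0.0666) ended that call, as did testing with no low-count filter (0.0705). The other OAS members had log2 ratios of 0.18 (Oas1a), 0.54 (Oas2) and 0.17 (Oasl2), each with overlapping groups. Oas2 passed the threshold without CML replicate 2, at 0.81 (adjusted p = 0.0157). The neighbours Oas2, Oas3 and Oas1a lie in 1 cluster of chromosome 5 (120730333 to 120907521), and so do Oasl2 and Oasl1 (114896936 to 114937915), so members of 1 cluster had unlike log2 ratios.

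The MX proteins are dynamin-like GTPases that trap viral particles, and the Mx1 allele of C57BL/6 mice is known to be defective. The counts here do not tell whether either MX gene makes a working protein. Mx2 was at 5.71, 4.96 and 5.95 CPM in CML and 11.4, 13.1 and 9.09 CPM in WT, without overlap. Its log2 ratio was -1.01 (SE 0.20, adjusted p = 0.00349, edgeR). Mx1 was at 5.15, 2.04 and 5.13 CPM in CML and 5.79, 9.41 and 6.04 CPM in WT. The Mx1 groups did not overlap either, yet its log2 ratio of -0.77 missed the threshold (SE 0.33, adjusted p = 0.137, edgeR).

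Isg15 is a ubiquitin-like protein that is attached to other proteins, and Usp18 is the protease that removes it and that also blocks the type I receptor. Usp18 (chromosome 6, 121245906 to 121270917) was at 58.0, 47.8 and 59.0 CPM in CML and 65.0, 95.8 and 87.5 CPM in WT. The highest CML value lay close under the lowest WT value, and the log2 ratio was -0.59 (SE 0.15, adjusted p = 0.0167, edgeR). Leaving out CML replicate 2 (adjusted p = 0.0663), WT replicate 2 (0.101) or WT replicate 3 (0.0507) ended the call. Isg15 was at 8.73, 9.41 and 6.95 CPM in CML and 8.72, 12.1 and 12.1 CPM in WT, and its log2 ratio of -0.39 missed the threshold (SE 0.20, adjusted p = 0.191, edgeR). Stat2, the signalling factor of type I interferon, went the other way, at 10.6, 16.4 and 12.9 CPM in CML and 9.50, 9.09 and 7.47 CPM in WT. Its log2 ratio of 0.61 passed narrowly (SE 0.19, adjusted p = 0.046, edgeR). The Stat2 call was lost when any library other than CML replicate 1 was left out (adjusted p from 0.0648 to 0.215).

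Among the 10 other antiviral effectors 3 fell (30%, against 7.20% of all tested genes), namely Rsad2, Cmpk2 and Ifi44, and 7 did not pass. Ifi44, a cytoplasmic protein induced by type I interferon (chromosome 3, 151730922 to 151749960), was at 60.4, 43.5 and 38.1 CPM in CML and 84.3, 123 and 112 CPM in WT. The groups were well apart, with a log2 ratio of -1.17 (SE 0.19, adjusted p = 0.00231, edgeR). Trim30a, a mouse regulator of inflammatory signalling, had the highest mean CPM of these effectors, at 303, 308 and 257 CPM in CML and 296, 350 and 261 CPM in WT. Its groups overlapped (log2 ratio -0.07, SE 0.13). Per kilobase of merged exon, Ifitm3, which blocks fusion of viruses with the cell, had the highest mean level of all 35 members, at 193 CPM per kb in CML and 264 in WT, and did not pass (log2 ratio -0.45, adjusted p = 0.109, edgeR). Bst2, the tether that holds budding virions, had a log2 ratio of -0.35 (adjusted p = 0.0913), although each CML library lay below each WT library. Ifi27l2a, a scarce mitochondrial protein gene, was at 1.51, 3.36 and 1.38 CPM in CML and 1.08, 0.884 and 0.685 CPM in WT. It had a log2 ratio of 1.22 that missed the threshold (SE 0.41, adjusted p = 0.0589, edgeR). It passed without CML replicate 1 (adjusted p = 0.041), when scaled by library totals (0.038) and when genes of low count were kept (0.0467). The remaining effectors, Xaf1, Rtp4 and Parp14, had log2 ratios from -0.05 to 0.15.

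Of the 5 nucleic acid sensors 2 fell (40%, against 7.20% of all tested genes). Both are members of the PYHIN family in 1 cluster on chromosome 1 (173747293 to 173942672). Ifi203 was at 229, 275 and 249 CPM in CML and 394, 449 and 325 CPM in WT, a separation without overlap. Its log2 ratio was -0.63 (SE 0.14, adjusted p = 0.00644, edgeR). Ifi204 was at 0.377, 0.948 and 1.502 CPM in CML and 3.64, 3.66 and 2.62 CPM in WT (a log2 ratio of -1.80, SE 0.40, adjusted p = 0.00789, edgeR). The PYHIN genes are near-identical over long stretches, Ifi203 overlaps Mndal on the same strand, and the division of shared reads is not given, so these values are uncertain. Of the listed PYHIN genes that are not members, Aim2 was higher in CML (log2 ratio 0.58, SE 0.13, adjusted p = 0.00913, edgeR). Mndal was lower (log2 ratio -0.43, SE 0.14, adjusted p = 0.0481, edgeR). Ifi209 (-0.39) and Ifi213 (-1.91) did not pass, and Ifi207 could not be tested. Called genes of this family therefore went in both directions. The RNA helicases that detect viral RNA did not pass: Ddx58 (RIG-I) had a log2 ratio of 0.22 (SE 0.11) and Ifih1 (MDA5) of -0.04 (SE 0.11). Zbp1, a sensor of Z-form nucleic acid, varied widely within both groups, at 3.95, 7.73 and 3.88 CPM in CML and 1.79, 5.68 and 5.54 CPM in WT (a log2 ratio of 0.25, SE 0.44).

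Some of the guanylate-binding proteins (GBP) and immunity-related GTPases attack vacuoles that hold pathogens, and both families respond strongly to interferon gamma. All 6 members had log2 ratios above 0, from 0.016 to 1.29, and 1 passed the test (16.7%, against 10.2% of all tested genes called higher). Of the 16221 tested genes, 8041 had a ratio above 0. With no low-count filter Irgm1 turned to -0.012. Among such GTPase genes outside the 35, Ifi47, Iigp1 and Tgtp2 lay below 0 (-0.42, -0.18 and -0.062). Tgtp1, Gbp4, Gbp5, Gbp6 and Gbp9 lay above 0 (0.67, 1.91, 1.47, 0.62 and 1.57), and of these Gbp5 and Gbp9 passed. Gbp2 (chromosome 3, 142620602 to 142638008) was at 24.0, 51.1 and 29.8 CPM in CML and 14.2, 13.95 and 14.8 CPM in WT. The CML libraries were spread widely above a tight WT group, and the log2 ratio was 1.29 (SE 0.25, adjusted p = 0.00789, edgeR). Without WT replicate 1 the value was 1.28 and the call was lost (adjusted p = 0.0799). Gbp3, in the same cluster, was at 14.6, 19.6 and 16.4 CPM in CML and 5.44, 10.4 and 13.3 CPM in WT, with a log2 ratio of 0.79 that missed the threshold (SE 0.28, adjusted p = 0.0808, edgeR). It passed without WT replicate 3 (adjusted p = 0.0241) and with the DESeq2 Wald test (0.0192). Igtp was at 34.8, 48.9 and 35.6 CPM in CML and 27.6, 30.6 and 30.2 CPM in WT (a log2 ratio of 0.43, SE 0.15, adjusted p = 0.0597, edgeR). It passed without CML replicate 1 (adjusted p = 0.0333) and when scaled by library totals (0.0306). Irgm1, the GTPase with the highest mean CPM here, was at 99.6, 128 and 98.4 CPM in CML and 96.9, 119 and 107 CPM in WT. Its log2 ratio was 0.016 (SE 0.13), and those of Irgm2 and Gbp7 were 0.073 and 0.075. Without CML replicate 2 Irgm1 and Irgm2 turned to -0.12 and -0.078, without WT replicate 1 Irgm1 turned to -0.059, and without WT replicate 3 Gbp7 turned to -0.012. Igtp and Irgm2 overlap on the same strand of chromosome 11, so their values are uncertain.

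**Figure D3:**
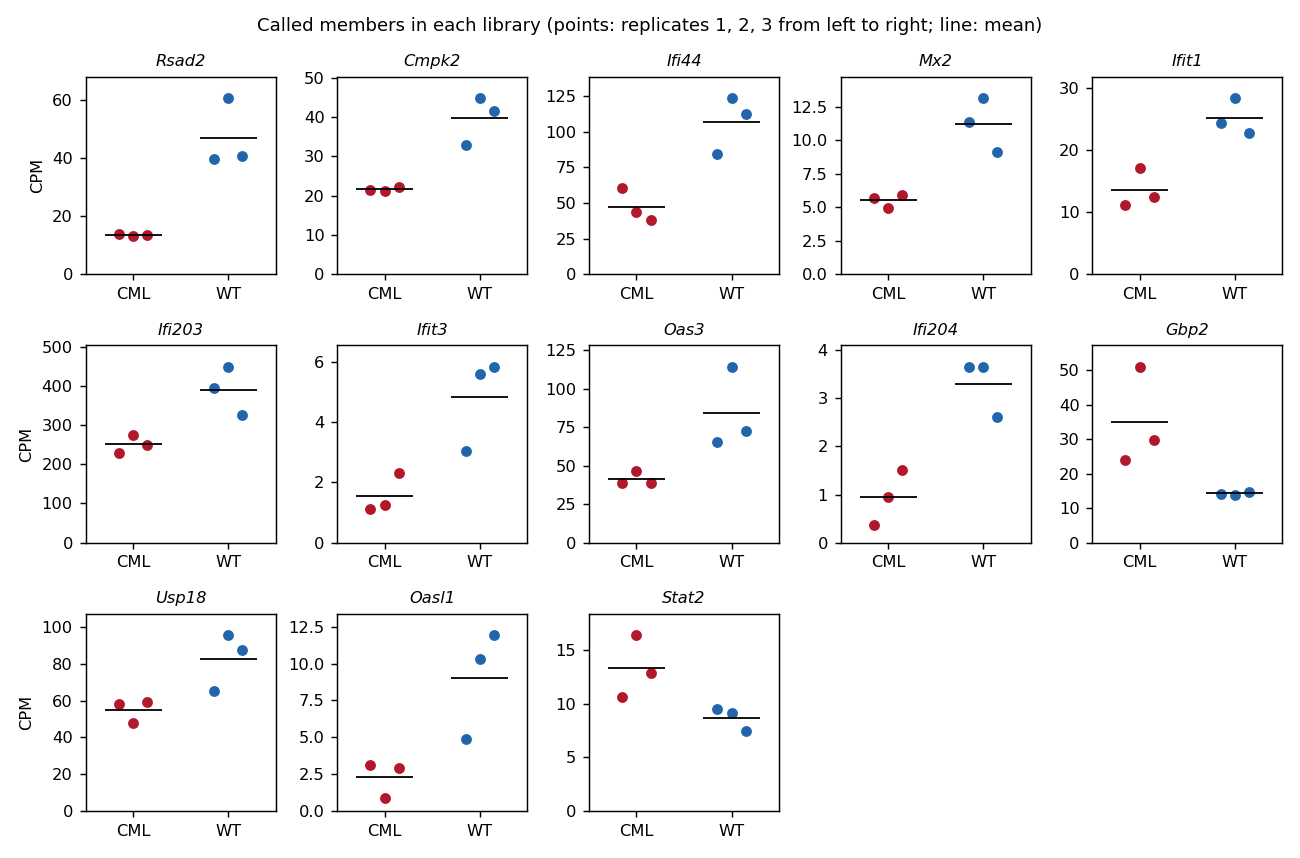
CPM of the 13 called members in each library, CML left of WT, with a line at the group mean (n = 3). In each panel the CML and WT points do not overlap; CML lies below WT in 11 panels and above it for Gbp2 and Stat2.

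Libraries within a group were not equal. Of the 35 members, 21 had their highest CML value in CML replicate 2, 22 had their highest WT value in WT replicate 2 and 22 had their lowest WT value in WT replicate 1. The number of members lower in CML stayed between 9 and 11 when each library was left out in turn. The number higher ran from 0 without WT replicate 1 to 4 without CML replicate 1, and was 1 without CML replicate 3 or WT replicate 2. Other scalings, filters and tests gave 10 or 11 lower members. The share of all tested genes called lower was 7.40% with the DESeq2 size factors, 4.51% with library totals, 4.93% with no low-count filter, 8.20% with a mean of at least 50 counts, 8.37% with the DESeq2 Wald test, 6.66% with limma-voom and 7.40% with the replicate block. The share called higher was 10%, 12.7%, 6.04%, 10.7%, 10.1%, 9.46% and 9.91% in the same order. Without CML replicate 1, 2 or 3 the lower share was 7.44%, 4.06% or 3.44% and the higher share 11.5%, 7.14% or 7.27%. Without WT replicate 1, 2 or 3 the lower share was 4.08%, 2.71% or 12.5% and the higher share 6.94%, 6.02% or 12%. Of the 13 called members, 9 were called in the same direction in each of the alternatives in which they were tested, and none of the 13 changed sign.

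The rest of the pathway was described from lists of receptors, kinases and factors, inhibitors, and genes for the induction of interferon. These and the other gene lists below were chosen with earlier results of these data known, so their shares only describe the lists. Rows for 3 of the 21 listed interferon genes were in the table, Ifnab, Ifnk and Ifnz, with at most 8 counts in a library, so the ligands could not be tested; the others were not analysed here. Of 36 tested pathway genes that are not members, 11 were higher in CML (30.6%, against 10.2% of all tested genes) and 0 lower, against 7.20% of all tested genes (edgeR; 0 lower also with DESeq2 and limma-voom, and 1 at an unadjusted p under 0.05). The higher count ran from 7 without WT replicate 2, where 6.02% of all tested genes were higher, to 17 without WT replicate 3, where 12% were higher and 1 pathway gene was lower. Their median log2 ratio was 0.25, beside -0.0043 for all tested genes.

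**Figure D4:**
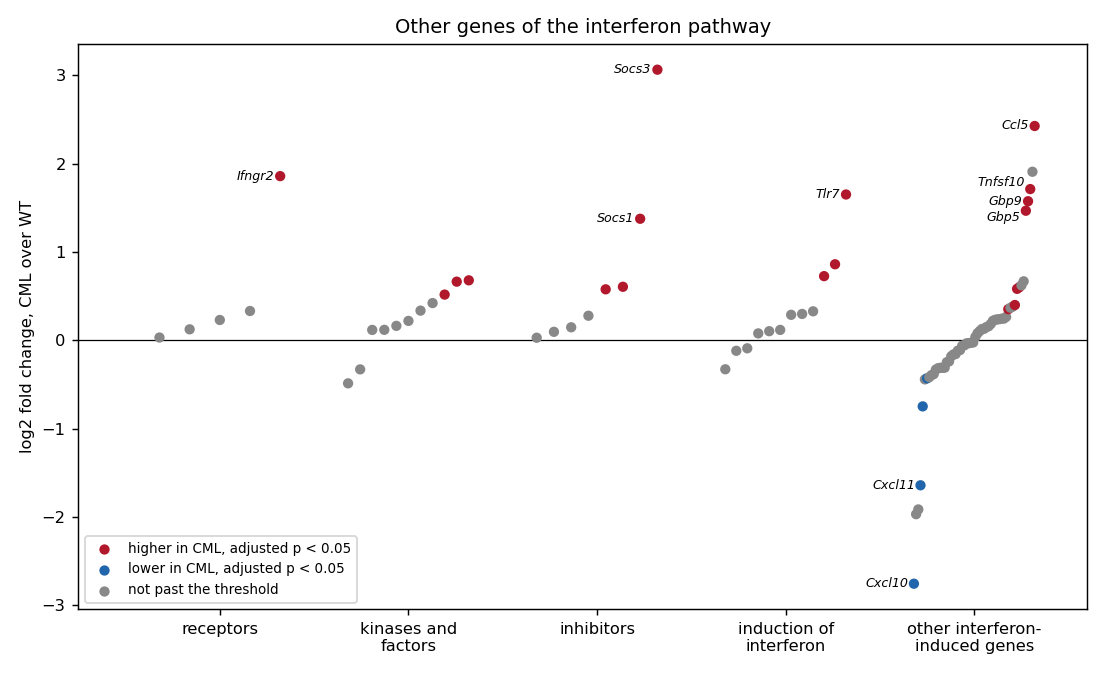
Log2 fold change (CML over WT) of tested interferon pathway genes that are not members, by list; each point is a gene, and called genes beyond 1 in size are named. The 11 called genes of the 4 pathway lists lie above 0, while the other interferon-induced genes hold calls on both sides.

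The receptor list had 1 call among 5 tested genes (20.0%, against 10.2% of all tested genes called higher). Ifngr2, the signalling chain of the interferon gamma receptor, was at 90.6, 112 and 97.6 CPM in CML and 25.9, 24.5 and 32.3 CPM in WT. The groups were far apart, with a log2 ratio of 1.86 (SE 0.14, adjusted p = 2.09e-06, edgeR). The type I chains Ifnar1 and Ifnar2 and the other gamma chain Ifngr1 did not pass, with log2 ratios of 0.12, 0.33 and 0.03.

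Of the 11 kinases and factors 3 rose (27.3%, against 10.2% of all tested genes). Irf1, a factor induced by interferon gamma, averaged 74.0 ± 4.52 CPM in CML against 46.7 ± 5.80 CPM in WT (SD, n = 3 each; log2 ratio 0.66, SE 0.12, adjusted p = 0.00273, edgeR). Jak2 and Tyk2 had log2 ratios of 0.68 and 0.52 (adjusted p = 0.0107 and 0.0153, edgeR). Both calls were lost without WT replicate 2 (adjusted p = 0.0534 for Jak2 and 0.0876 for Tyk2), and that of Tyk2 also without CML replicate 2 (0.0873) or WT replicate 1 (0.0521). Irf9, which binds DNA in the type I complex, did not pass, with a log2 ratio of 0.42 (SE 0.14, adjusted p = 0.0554, edgeR).

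Of the 9 inhibitors 4 rose (44.4%, against 10.2% of all tested genes) and Usp18, a member, fell (11.1%, against 7.20%). Socs3, a feedback inhibitor of JAK kinases, averaged 27.6 ± 8.73 CPM in CML against 3.29 ± 0.98 CPM in WT (SD, n = 3 each), a log2 ratio of 3.06 (SE 0.28, adjusted p = 4.57e-05, edgeR). Socs1, a feedback inhibitor of interferon signalling, rose by 1.38 on the log2 scale (SE 0.29, adjusted p = 0.00691), the corepressor Irf2bp2 by 0.61 and the phosphatase Ptpn1 by 0.58. The Ptpn1 call ended without CML replicate 2 (adjusted p = 0.0548) or WT replicate 2 (0.06). Of 12 tested genes for the induction of interferon, 3 rose (25.0%, against 10.2% of all tested genes). Sting1, the adaptor for cytosolic DNA, averaged 139 ± 11.1 CPM in CML against 76.7 ± 17.5 CPM in WT (a log2 ratio of 0.86, SE 0.15, adjusted p = 0.002, edgeR). Tlr7, an endosomal RNA receptor, rose by 1.65 and the kinase gene Ikbke by 0.73. Ikbke missed the threshold without WT replicate 2 (adjusted p = 0.0563).

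Of 56 tested interferon-induced genes outside the 35, 8 were higher in CML (14.3%, against 10.2% of all tested genes), 4 lower (7.14%, against 7.20%) and 44 did not pass. Cxcl10, a chemokine gene, was at 3.77, 2.699 and 4.69 CPM in CML and 21.3, 28.5 and 26.2 CPM in WT (a log2 ratio of -2.76, SE 0.21, adjusted p = 2.29e-06, edgeR). The genes with the lowest adjusted p among those that rose were Gbp5 (log2 ratio 1.47), Tnfsf10 (1.71), which encodes the death ligand TRAIL, and the chemokine gene Ccl5 (2.43). Gbp5 was at 34.8, 36.8 and 31.0 CPM in CML and 11.9, 13.95 and 11.2 CPM in WT, and its groups did not overlap. The count of higher genes fell to 5 without CML replicate 2, 4 without WT replicate 1 and 3 without WT replicate 2. The count of lower genes was 2 without WT replicate 2 and 7 without WT replicate 3.

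Markers of other cells differed between the groups. Beside the counts below, 10.2% of all tested genes were called higher and 7.20% lower in CML. The shares for the alternatives are given above. The 13 mast cell and basophil markers summed to 2090, 7330 and 4643 CPM in CML and to 375, 184 and 358 CPM in WT. Cpa3 made up most of each CML sum, at 1336, 4601 and 2783 CPM. Of the 13, 7 rose, Hdc and Tpsab1 among them, and Mcpt1 and Mcpt2 were at 0 in WT. The 12 monocyte and macrophage markers summed to 117, 213 and 154 CPM in CML and 34.1, 25.5 and 41.4 CPM in WT, and 5 of 9 tested rose, Adgre1 and Csf1r among them. The 12 conventional dendritic cell markers summed to 97.4, 335 and 333 CPM in CML and 27.1, 36.2 and 52.5 CPM in WT, with 6 of 9 tested higher, Batf3 and Irf4 among them. Leaving out WT replicate 1 brought the mast cell count to 2 and the dendritic count to 1. Without WT replicate 2 they were 4 and 2, without CML replicate 1 the mast cell count was 12, and without WT replicate 3 the dendritic count was 3. The dendritic count was 2 with limma-voom, 3 with no low-count filter and 4 with a mean of at least 50 counts or without CML replicate 2 or 3, and the mast cell count was 11 with DESeq2. Markers of plasmacytoid dendritic cells, a main source of type I interferon, summed to 148, 177 and 154 CPM in CML and 172, 187 and 164 CPM in WT. Of 6 tested, Tlr7 was higher in CML; the higher count was 2 with DESeq2 and without CML replicate 1 or WT replicate 3. None was lower (edgeR; 2 at an unadjusted p under 0.05; none with DESeq2 or limma-voom), but 1 was lower without any single WT replicate and 2 were when low counts were not filtered. The defining gene Siglech had at most 4 counts in a CML library and 20 in a WT library. Tcf4 made up most of each plasmacytoid sum, at 91.1, 109 and 99.1 CPM in CML and 128, 130 and 110 CPM in WT. The sums therefore do not measure how many plasmacytoid cells were present. Of 8 stem cell markers 3 were lower in CML, Hlf among them (1 without WT replicate 2), and they summed to 410, 383 and 348 CPM in CML and 606, 562 and 448 CPM in WT. Neutrophil markers had no call among 7 tested (edgeR; 1 lower at an unadjusted p under 0.05; none with DESeq2 or limma-voom). Without WT replicate 3 there was 1 higher, and with no low-count filter 1 lower. Among them Camp was at 0 in WT, and the sums were 156, 202 and 258 CPM in CML and 143, 128 and 252 CPM in WT. Of 14 lymphoid genes 2 could be tested and Cd79b was higher in CML, Ncr1 and Gzma were at 0 in WT, and the sums were 68.4, 78.1 and 83.5 CPM in CML and 59.6, 64.6 and 80.2 CPM in WT. The lymphoid count was 2 when low counts were not filtered, and when CML replicate 1 or any single WT replicate was left out. Of 8 tested erythroid and megakaryocyte markers, Klf1 was higher and Hbb-bs and Itga2b lower in CML, Hba-a1 was at 0 in WT, and the sums were 96.2, 177 and 185 CPM in CML and 234, 239 and 261 CPM in WT. Of that list, 5 were higher without CML replicate 1, 3 higher and 1 lower with no low-count filter, and none higher with a mean of at least 50 counts. Its lower count was 0 without WT replicate 1. Leaving out replicate 2 of either group, or WT replicate 3, gave 1, as did library totals, and DESeq2 gave 3. Of the gate genes Kit and Ly6a did not pass and Slamf1 was lower in CML (log2 ratio -0.80, adjusted p = 0.047, edgeR), a call lost without CML replicate 1 or 3 or WT replicate 1 or 2; the 3 genes summed to 295, 594 and 398 CPM in CML and 348, 387 and 373 CPM in WT. The part of these cells in the values of the 35 members was not tested.

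The library totals behind these values ran from 13323552 to 15433562 counts in CML and from 15930648 to 17926866 counts in WT. Spearman coefficients across tested genes were 0.983 to 0.992 within groups and 0.951 to 0.970 between them. The chi-square per degree of freedom did not part the groups as cleanly. WT replicate 3 was at 27.6 from CML replicate 1 and at 30.2 from WT replicate 1, while WT replicates 1 and 2 were at 7.92. Of the 35 members, 16 had a value more than 0.05 from a whole number in at least 1 library; among the called members these were Ifit1, Ifit3, Usp18, Mx2, Ifi203 and Ifi204. Rsad2, Cmpk2, Ifi44, Oas3, Oasl1, Stat2 and Gbp2 had whole values in all 6 libraries.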

How the data were processed

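Groups and replicate numbers were read from the sample titles. The authors deposited estimated counts per gene, not scaled to a common total, with 35.0% to 36.9% of the entries of a library not whole. The submitters' processing notes list STAR 2.7.3a, Partek 8.0 and mm10, with no role for each. The annotation, strand setting and division of shared reads were not stated there or in the labels. Counts were rounded, filtered with filterByExpr (minimum count 10; 16221 of 29872 genes kept) and tested with the quasi-likelihood test of edgeR 4.0.16 in R 4.3.3 (TMM scaling, robust, group as only term, two-sided, Benjamini-Hochberg). SE came from the fold change and F statistic. CPM use TMM-scaled library sizes. Alternatives were other scalings and filters, DESeq2 1.42.0, limma-voom (limma 3.58.1), a replicate block and leaving out each library. The pipeline was tested on simulated data. Coordinates and merged exon lengths are from GENCODE M21 (GRCm38). No 2 libraries agreed within sampling noise (lowest chi-square per degree of freedom 7.92).

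The members and gene lists were chosen with earlier results of these data known. The naming rule gave per-library values to called members and to the member with the highest mean CPM of each role, and from other lists up to 4 called genes with the lowest adjusted p (2 for markers); others named were chosen after their values were seen. Tmem173 and Mb21d1 were matched as Sting1 and Cgas through RefSeq synonyms. The values of some listed genes are not reported here.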

Additional observations from a re-analysis of the deposited data

How the results depend on the processing

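Across 13 alternatives, 9 of the 13 called members were called in the same direction wherever tested, and Usp18, Stat2, Oasl1 and Gbp2 lost the call in at least 1. Stat2 was also lost with limma-voom (adjusted p = 0.0586) and with the replicate block (0.0521), and Oasl1 with the block (0.0555). The numbers of replicates are shared between the groups, but the libraries of a number did not deviate together (correlations -0.035, -0.040 and 0.014 for numbers 1, 2 and 3), so the block pairs a number only. Gbp3 passed with the replicate block (adjusted p = 0.0165). With that block the counts of members were 10 lower and 2 higher, against 11 and 2. It also gave 1 higher and 1 lower neutrophil marker (0 and 0 without it), 2 higher and 1 lower plasmacytoid marker (1 and 0) and 3 lower erythroid and megakaryocyte markers (2). Members higher in CML numbered 4 when scaled by library totals, 1 with limma-voom and 0 to 4 when each library was left out. With library totals 732 genes were lower, against 1168, and the higher share of all calls was correspondingly larger (2065 genes higher, against 1652). With each library left out, lower genes ran from 455 to 2101 and higher genes from 1011 to 2021. Other interferon-induced genes ran from 3 to 8 higher and 2 to 7 lower, and 2 were lower with a mean of at least 50 counts. Pathway genes ran from 7 to 17 higher and from 0 to 1 lower. Uncalled members turned sign near 0: with library totals Rtp4 was at 0.044, Trim30a at 0.036 and Ifih1 at 0.065, and without the low-count filter Irgm1 was at -0.012. With each library left out, Rtp4 ran from -0.26 to 0.076, Parp14 from -0.017 to 0.17, Trim30a from -0.16 to 0.048, Ifih1 from -0.11 to 0.0062, Zbp1 from -0.14 to 0.49, Gbp7 from -0.012 to 0.15, Irgm1 from -0.12 to 0.086 and Irgm2 from -0.078 to 0.21. The causes were not tested. Low levels limit Ifit3b, Ifi204 and Ifi27l2a.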
